A study of Mus musculus with 12 samples.

Results

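The adhesion G protein-coupled receptor (GPCR) genes *Adgre1*, *Adgre4* and *Adgre5* were followed through an experiment on bone marrow-derived macrophages (BMDMs). They were selected by gene symbol and make up 3 of the 48526 genes in the count table. *Adgre4* came to notice for its low counts after IL-4 alone, so its values in that contrast, and in every other contrast with the IL4 or Untreated libraries, are not independent of the choice and are given without a test. The 3 genes were chosen with earlier results of these data known, and IL4 against Untreated was the contrast behind the choice. Which values, if any, led to the other 2 genes is not recorded. Their tests against Untreated or IL4 may therefore not be independent of the choice either.

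Marrow of 3 female C57Bl/6J mice was grown in m-CSF to day 7, and cells of each mouse were divided among 4 cultures of 16 hr. These were left without cytokine (Untreated), given 100 pg/mL IL4, given 100 ng/mL Wnt3a, or given both proteins at those doses (Wnt3a+IL4). All groups therefore share the m-CSF and the cells of the same 3 animals, at 1 dose and 1 time. Wnt3a is a secreted ligand of the canonical Wnt pathway, and IL-4 is a cytokine that signals through STAT6.

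The Wnt3a and Wnt3a+IL4 columns of a mouse overlap in their reads. In the same mouse, 0 of 48526 genes had a Wnt3a count outside 1 to 2 times the Wnt3a+IL4 count, whereas 6681 to 8625 genes did so between mice. The columns were therefore separated into a difference (Wnt3a minus Wnt3a+IL4) and a remainder (2 times Wnt3a+IL4 minus Wnt3a), with 0 negative values in any gene. Both come from cells that received Wnt3a, but the labels do not say which of them also received IL-4. The 12 resulting libraries of 4 groups held 13342492 to 17453377 counts each. Levels are given as CPM, counts brought to a common library total after TMM scaling, a correction for differences in library composition.

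Adhesion GPCRs carry a long extracellular region, which in many of them is cut by the receptor itself next to its first membrane-spanning helix, and signal through G proteins. The ADGRE group has EGF-like repeats at the outer end and is found mainly on myeloid cells. *Adgre1* encodes F4/80, the classical surface marker of mouse macrophages. *Adgre5* encodes CD97, which binds CD55 and integrins and is present on many leukocytes. *Adgre4* encodes EMR4, known from macrophages and from circulating monocytes with little Ly6C.

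The 3 genes gave different patterns. *Adgre5* was lower in both Wnt3a-derived groups, by 1.74-fold (difference) and 1.56-fold (remainder) against Untreated. *Adgre1*, already among the most abundant transcripts, was 1.24-fold higher in the difference, a call that depended on single libraries. *Adgre4*, the scarcest of the 3, was lowest after IL-4 alone, at 3.94 ± 1.16 CPM against 12.6 ± 3.998 CPM in Untreated (SD, n = 3 each), while both Wnt3a-derived groups read between 6.37 and 18.7 CPM.

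**Figure D1:**
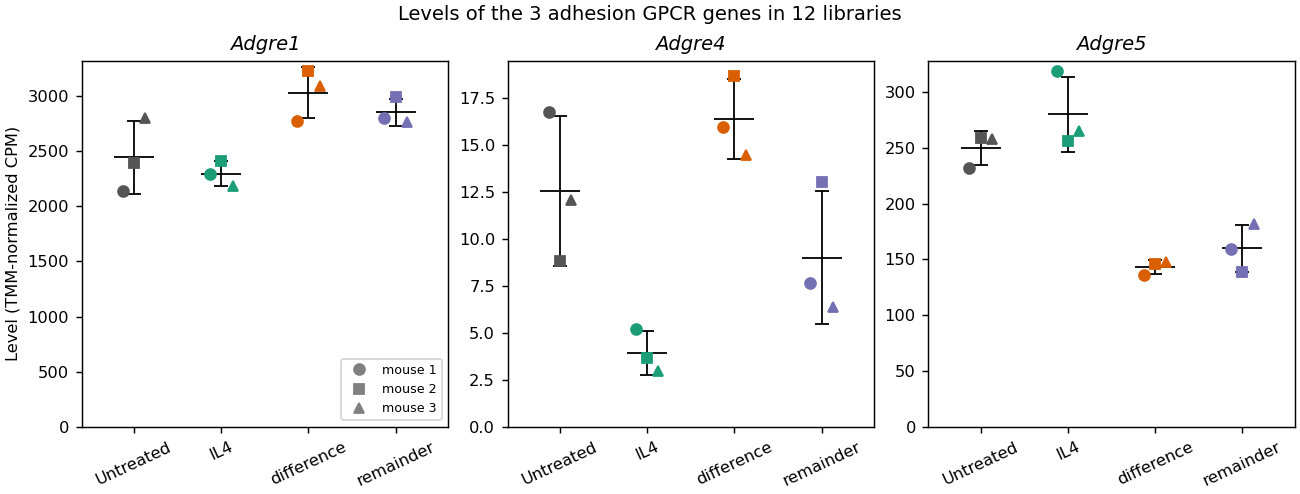
Level of each gene in TMM-normalized CPM (vertical axis, from 0, with its own scale in each panel) in the 4 groups (horizontal axis). Each point is 1 library and its shape the mouse, the long line is the mean and the bars are ± 1 SD. For *Adgre5* the 6 points of the difference and the remainder, at most 181 CPM, sit below all points of the other groups, and for *Adgre4* the IL4 points, at most 5.21 CPM, sit below the rest.

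*Adgre1* (ENSMUSG00000004730) occupies chr17:57358691-57483527 on the plus strand of mm10, with 23 exons in its longest coding transcript. *Adgre4* (ENSMUSG00000032915) lies on the same chromosome and strand, at chr17:55749984-55853662, with 17 exons. *Adgre5* (ENSMUSG00000002885) is on the minus strand at chr8:83723251-83741326, with 20 exons. Reads of the 3 genes can be told apart. Their longest shared coding stretch was 18 bases, between *Adgre1* and *Adgre5*, against 11 bases between *Adgre1* and *Adgre4* and 10 between *Adgre4* and *Adgre5*. The first, as the longest, is shown with 20 bases on either side. It runs 5′ to 3′ along the coding strand, with the identical bases in capitals.
*Adgre1*, coding bases 641 to 698, exons 6 and 7, chr17:57406957-57408379: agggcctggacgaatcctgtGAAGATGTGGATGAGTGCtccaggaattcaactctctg
*Adgre5*, coding bases 617 to 674, exons 6 and 7, chr8:83729492-83730134: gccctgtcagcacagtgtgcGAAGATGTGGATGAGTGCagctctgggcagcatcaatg
Outside the capitals the letters soon diverged. No 50-base stretch of *Adgre1* or *Adgre4* transcripts (0% of each) occurred in another annotated gene.

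*Adgre5* is less cleanly counted. Of its exon bases, 23.8% lie opposite another gene, *Ddx39*, which encodes an RNA helicase, and 16.4% of its 50-base stretches also occur there on one strand or the other. Whether the counting used strand is not given in the sources used here. *Ddx39* had 44.7 ± 5.53 CPM in Untreated, 47.6 ± 4.26 in IL4, 43.6 ± 1.42 in the difference and a mean of 49.3 ± 7.32 in the remainder (SD, n = 3 each). It was not called against Untreated, with log2 fold changes of -0.04 for the difference and 0.14 for the remainder (edgeR, adjusted p = 0.862 and 0.408).

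The deposited Wnt3a columns held 142190, 154450 and 127054 counts of *Adgre1* in mouse 1, 2 and 3, and the Wnt3a+IL4 columns 93691, 101598 and 84574. For *Adgre4* they held 681, 824 and 495 in Wnt3a and 402, 518 and 296 in Wnt3a+IL4. For *Adgre5* they held 7322, 7054 and 6813 in Wnt3a and 4944, 4659 and 4787 in Wnt3a+IL4. These columns are 2 to 3 libraries deep, so the larger numbers cannot by themselves be read as higher levels.

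Per kilobase of exon, a scale on which genes can be set side by side, *Adgre1* stood at 755 ± 103 CPM per kb in Untreated, *Adgre5* at 66.5 ± 4.03 and *Adgre4* at 3.599 ± 1.15 (SD, n = 3 each). That order held in all 12 libraries, and neighbouring levels never overlapped. On the group means, *Adgre1* ranked between 37 and 45 from the top of 12398 genes in the 4 groups. *Adgre5* moved from rank 559 in Untreated and 523 in IL4 to 1177 and 1044 in the difference and remainder. *Adgre4* ranked 6898 in Untreated, 9432 in IL4, 6199 in the difference and rank 7738 in the remainder. Of the summed level of the 3 genes, *Adgre5* made up 7.32 to 10.7% in the Untreated and IL4 libraries and 3.74 to 5.34% in the Wnt3a-derived ones. *Adgre4* never exceeded 0.660%.

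*Adgre5* had 232, 259 and 258 CPM in the Untreated libraries of mouse 1, 2 and 3, and 319, 257 and 265 CPM in the IL4 libraries. The difference gave 136, 146 and 147 CPM, and the remainder 159, 139 and 181 CPM. Every Wnt3a-derived library was below every other library, while the Untreated and IL4 values overlapped.

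Against Untreated, the log2 fold change of *Adgre5* was -0.80 ± 0.10 (standard error) in the difference, with an adjusted p of 6.96e-05 in the quasi-likelihood test of edgeR over 12421 genes. By mouse, its log2 ratios in that comparison were -0.77, -0.82 and -0.81. In the remainder it was -0.64 ± 0.10 (edgeR, adjusted p = 0.000382), with -0.54, -0.90 and -0.51 in the 3 mice. Calls were common here. In the difference 23.2% of tested genes were called, 11.8% higher and 11.4% lower, and in the remainder 25.3%, 13.6% higher and 11.7% lower. *Adgre5* kept its direction and its call under all 23 alternatives in each comparison, with log2 fold changes from -0.89 to -0.76 (difference) and from -0.75 to -0.51 (remainder).

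Against IL4, *Adgre5* was also lower in both groups, with log2 fold changes of -0.97 (difference, adjusted p = 1.04e-05 from edgeR) and -0.81 (remainder, adjusted p = 6.64e-05 from edgeR). For the difference 20.3% of tested genes were called against IL4 (10.0% higher, 10.3% lower), and for the remainder 20.3% (10.6% higher, 9.67% lower). Between remainder and difference its log2 fold change was 0.16, with a 95% interval from -0.07 to 0.38 (adjusted p = 0.437 from edgeR). In IL4 against Untreated, where 3.40% of tested genes were called (2.31% higher, 1.09% lower), its log2 fold change was 0.17, with a 95% interval from -0.06 to 0.39, given without a test.

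The order of *Adgre5* levels was therefore IL4 (280.1 ± 33.8 CPM), Untreated (249.7 ± 15.1), remainder (160.0 ± 21.1) and difference (143 ± 6.18; SD, n = 3 each). IL4 and Untreated overlapped, as did remainder and difference, and the step between these pairs was larger than the SD of any group.

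In bulk RNA, fewer cells of a type and less RNA per cell cannot be told apart. Macrophage markers were high throughout (9 of 9 tested, summed at 44312 to 64252 CPM), led by *Lyz2*. Of these, 3 were higher and 1 lower than Untreated in the difference, and 2 were higher in the remainder. *Fcgr1*, a high-affinity IgG receptor, had log2 fold changes of 1.07 and 0.60 (adjusted p = 3.45e-06 and 0.000491, edgeR), and *Itgam*, encoding CD11b, 1.07 and 0.90 (adjusted p = 1.38e-06 and 5.89e-06, edgeR). However, 68.7% of the exon bases of *Itgam* are shared with another gene on the same strand, and 66.3% of its 50-base stretches occur in other genes. Its counts may thus cover only a part of its reads. *Cd14*, a lipopolysaccharide co-receptor, was higher in the difference (0.78, adjusted p = 6.72e-06 from edgeR) and stood at 0.21 in the remainder (adjusted p = 0.0732 from edgeR). Of 9 neutrophil markers 6 were tested, of which 1 was lower than Untreated in the difference and 4 in the remainder, where 11.4% and 11.7% of all genes were. The sum of all 9 was 49.4 to 67.1 CPM in Untreated, 63.3 to 78.6 in IL4, 34.7 to 55.0 in the difference and 31.7 to 34.4 for the remainder, with the defining marker *Ly6g* at or near 0. The ranges of Untreated and the difference overlapped. In the remainder, *Ltf*, *Ngp* and *S100a9*, which encode granule and calcium-binding proteins of neutrophils, were lower by log2 fold changes of -1.02, -0.90 and -0.68 (adjusted p = 0.000753, 0.00133 and 0.0134 from edgeR). In the difference they stood at -0.50, -0.55 and -0.37 (adjusted p = 0.0569, 0.0298 and 0.162 from edgeR), and *Mpo*, at most 14 counts in a library, at 0.63 and 0.71 in the 2 groups (adjusted p = 0.515 and 0.437 from edgeR). CD97 is also carried by granulocytes, and the part of these cells in the fall of *Adgre5* was not tested. The summed eosinophil, dendritic cell and T cell markers stayed at 6.28, 2.41 and 0.15 CPM or below in every library, and stromal markers at 29.0 CPM or below, with *Il5ra* at 0 counts in all 12 libraries.

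*Adgre4* gave 312, 137 and 193 counts in the Untreated libraries of mouse 1, 2 and 3, and 87, 57 and 41 in the IL4 libraries. The difference held 279, 306 and 199 counts, and the remainder 123, 212 and 97. At these counts *Adgre4* is measured less finely than its relatives, with standard errors of its log2 fold changes from 0.26 to 0.30 against about 0.10 for the other 2 genes over the comparisons with or between the Wnt3a-derived groups.

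In CPM, *Adgre4* read 16.8, 8.81 and 12.1 in Untreated and 5.21, 3.64 and 2.96 in IL4. It read 16.0, 18.7 and 14.5 in the difference and 7.64, 13.03 and 6.37 in the remainder. The IL4 libraries lay below all others, and the remainder lay below the difference without overlap, although the remainder of mouse 2 was well above those of mouse 1 and 3.

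The contrast that drew attention to *Adgre4* was IL4 against Untreated, with a log2 fold change of -1.67 (95% interval -2.30 to -1.03) and ratios of -1.69, -1.27 and -2.03 in the 3 mice. It is a description and carries no test. Of all tested genes, 1.09% were called lower there.

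Remainder against difference shares no library with that contrast. *Adgre4* was lower in the remainder by a log2 fold change of -0.86 (95% interval -1.44 to -0.28), and lower in 3 of 3 mice, with log2 ratios of -1.06, -0.52 and -1.18. The adjusted p of 0.0878 from edgeR did not pass the threshold in a comparison in which 5.25% of tested genes were called, 2.87% higher and 2.38% lower. In 18 of 23 alternatives it stayed uncalled, and log2 fold changes over the 23 ran from -1.21 to -0.14. In the other 5 it passed. These were DESeq2 (-0.87, adjusted p = 0.0262), all genes of at least 1 count in the fit (adjusted p = 6.58e-06 from edgeR), and the fit without mouse 2 (-1.11, adjusted p = 0.0106 from edgeR), the mouse with the smallest ratio. It also passed without the remainder of mouse 2 (-1.21, adjusted p = 0.0136 from edgeR) and without the Untreated library of mouse 2 (-0.86, adjusted p = 0.0479 from edgeR).

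Against Untreated, the log2 fold change of *Adgre4* was 0.38 in the difference (95% interval -0.19 to 0.94). In the remainder it was -0.48 (95% interval -1.06 to 0.10), with mouse 1 and 3 below their Untreated library and mouse 2 above it. Without mouse 2 that value was -1.03, and without the remainder of mouse 2 it was -0.85.

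Against IL4, the fitted level of *Adgre4* was 4.12-fold as high in the difference (log2 fold change 2.04, 95% interval 1.42 to 2.67) and 2.27-fold as high in the remainder (1.18, 95% interval 0.54 to 1.83). Without mouse 2 the remainder value was 0.78. All these values are descriptions.

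The order of *Adgre4* levels was difference (16.4 ± 2.14 CPM), Untreated (12.6 ± 3.998), remainder (9.01 ± 3.53) and IL4 (3.94 ± 1.16; SD, n = 3 each). Neighbouring groups overlapped except for the step from remainder to IL4.

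How far the IL-4 effect on *Adgre4* depended on Wnt3a can be written only under an assumed identity of the parts, and is given without a test. Which part received IL-4 was not tested. Every gene of the lists used here that was called both in IL4 against Untreated and in remainder against difference changed in the same direction. Among them were *Itgax* (log2 fold changes of 2.94 and 2.06), *Itgb3* (1.33 and 2.67) and *Cx3cr1* (-1.14 and -1.44). With the remainder taken as Wnt3a+IL4, the log2 fold change with IL-4 was -0.86 with Wnt3a and -1.67 without it. The value (with minus without) was 0.81, with a 95% interval from -0.05 to 1.66 that holds both signs. The fall without Wnt3a is the contrast that drew attention to *Adgre4*, so a value built on it is not independent of the choice. With the difference taken as Wnt3a+IL4, IL-4 would go with a rise in the presence of Wnt3a and a fall without it, and the value was 2.53 (95% interval 1.67 to 3.38). For *Adgre5* the same values were -0.01 (95% interval -0.32 to 0.31) and -0.33 (-0.64 to -0.01), and for *Adgre1* 0.00 (-0.30 to 0.31) and 0.18 (-0.13 to 0.48).

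The 250 bases before the *Adgre4* start (RefSeq, GRCm38.p6, chr17:55749734-55749983, plus strand) are shown because, of the 3 genes, this one had the largest log2 difference in IL4 against Untreated. RefSeq promoter sequence was found for 1 of the 3 genes. Capitals mark the single match among the motifs searched.
*Adgre4* promoter: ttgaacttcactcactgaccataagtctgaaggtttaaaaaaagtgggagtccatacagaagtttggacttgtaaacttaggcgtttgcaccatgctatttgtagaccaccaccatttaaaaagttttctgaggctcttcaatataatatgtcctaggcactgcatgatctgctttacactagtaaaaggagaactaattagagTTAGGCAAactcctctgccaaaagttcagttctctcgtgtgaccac
Both strands were searched for 7 motifs. The match was to the C/EBP motif TTGCNNAA on the reverse strand, beginning 46 bases before the start, and 9.56% of 32851 promoter windows of this length hold that motif. The window held 0 matches to the STAT6 motif, TTC and GAA with 4 bases of any kind between them (5.85% of windows), the STAT motif TTCNNNGAA (7.02%), the TCF/LEF motif CTTTGAT (3.21%), the PU.1 motif GAGGAAGT (2.44%), the AP-1 motif TGANTCA (6.75%) and the RUNX motif TGTGGT (14.04%). These are counts of letters in this window and say nothing on the binding of a factor.

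*Adgre1*, the F4/80 gene, read 2139, 2391 and 2802 CPM in the Untreated libraries of mouse 1, 2 and 3, and 2293, 2413 and 2184 CPM in the IL4 libraries. The difference gave 2776, 3227 and 3088 CPM and the remainder 2807, 2996 and 2766 CPM. All 6 Wnt3a-derived libraries exceeded the 3 IL4 libraries, and they overlapped with Untreated only through the high Untreated value of mouse 3.

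Against Untreated, *Adgre1* was higher in the difference by a log2 fold change of 0.31 ± 0.10 (edgeR, adjusted p = 0.0405), with 0.38, 0.43 and 0.14 in the 3 mice, where 11.8% of tested genes were called higher. The call was lost without any 1 of the 3 mice (0.28, 0.25 and 0.41) and in 6 of the 12 fits without 1 library. These left out Untreated mouse 1 (0.22) or 2 (0.30), IL4 mouse 2 (0.31), difference mouse 2 (0.26) or 3 (0.30), or remainder mouse 3 (0.31). It was also lost with scaling by total counts (0.22) and with only these 2 groups in the fit (0.32), and the adjusted p from edgeR or DESeq2 ran from 0.00798 to 0.261 over the 23 alternatives.

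In the remainder the log2 fold change of *Adgre1* against Untreated was 0.22 (95% interval 0.01 to 0.44, adjusted p = 0.126 from edgeR). It passed the threshold only without the Untreated library of mouse 3 (0.33, adjusted p = 0.0246 from edgeR). In remainder against difference its log2 fold change was -0.09, with a 95% interval from -0.30 to 0.13 (adjusted p = 0.703 from edgeR).

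Against IL4, *Adgre1* was higher in the difference (0.40 ± 0.10, edgeR, adjusted p = 0.0112) and also in the remainder (0.31 ± 0.10, edgeR, adjusted p = 0.0421), with no overlap in either. The remainder call was lost with the mouse as replicate block (0.31, adjusted p = 0.0522 from edgeR). It was lost too in 11 of 15 fits without a mouse or library (0.30 to 0.36 over the 15), those without mouse 1, 2 or 3, any 1 IL4 or remainder library, or difference mouse 2 or 3. The difference call was lost without mouse 2 (0.40), mouse 3 (0.37) or difference mouse 2 (0.35). IL4 against Untreated gave -0.09 (95% interval -0.31 to 0.13), as a description.

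By mean, the order of *Adgre1* levels was difference (3030.4 ± 231 CPM), remainder (2856 ± 123), Untreated (2444 ± 335) and IL4 (2296 ± 115; SD, n = 3 each). Each neighbouring pair in this order overlapped.

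**Figure D2:**
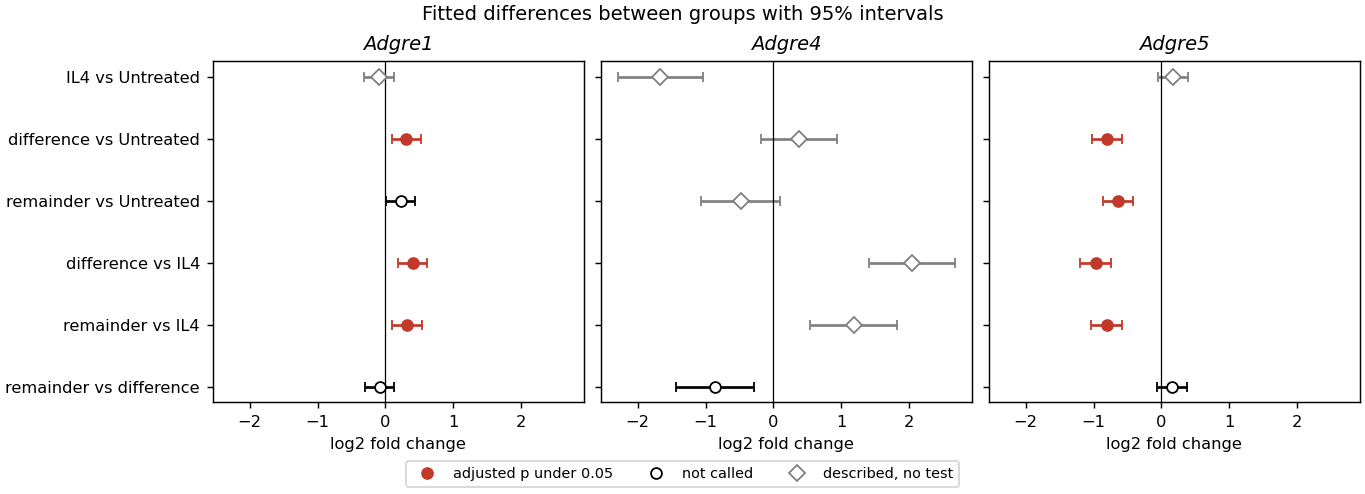
Fitted log2 fold changes (horizontal axis) of each gene in the 6 comparisons (vertical axis), with 95% intervals. Filled circles had an adjusted p under 0.05, open circles did not, and grey diamonds carry no test (IL4 vs Untreated, and for *Adgre4* every comparison except remainder vs difference). *Adgre5* lies left of 0 in the 4 comparisons of a Wnt3a-derived group with Untreated or IL4, from -0.97 to -0.64, while *Adgre1* lies right of 0, from 0.22 to 0.40.

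Across the 12 libraries, the log2 levels of *Adgre1* and *Adgre5* ran in opposite directions, with a Pearson r of -0.81. The value was 0.56 for *Adgre1* with *Adgre4* and -0.61 for *Adgre4* with *Adgre5*. These values describe libraries that share animals and group means, and carry no test.

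The genes whose log2 levels followed each receptor most closely were taken from the 8511 genes whose mean reached 8 CPM. For *Adgre5* they were *Tspan14* (r = 0.99), *Jun* (0.98), *Inppl1* (0.98), *Pqlc1* (0.98) and *Tecpr1* (0.98). *Tspan14* encodes a tetraspanin, and its mean fell from 159 CPM in Untreated to 97.4 and 108 CPM in the difference and remainder. *Jun*, an AP-1 subunit, had means of 164, 104 and 113 CPM in the same groups. *Inppl1* encodes the lipid phosphatase SHIP2, and 20.3% of its exon bases lie opposite another gene.

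For *Adgre4* they were *Tlr2* (r = 0.90), *Pilra* (0.90), *Cd200r4* (0.90), *Cd302* (0.89) and *Nadk* (0.88). *Tlr2*, a receptor for bacterial lipoproteins, had means of 288 CPM in Untreated, 176 in IL4, 384 (difference) and 222 (remainder). *Pilra*, an inhibitory receptor of myeloid cells, had 28.4, 8.03, 81.4 and 24.1 CPM, and 20.8% of its 50-base stretches occur in other genes. *Cd200r4* shares 4.94% of its stretches, mostly with *Cd200r2*.

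For *Adgre1* they were *Etv6* (r = 0.95), *St3gal1* (0.94), *Drosha* (0.94), *Mag* (0.94) and *Phyh* (0.93). *Etv6*, a transcriptional repressor, had means of 74.2 CPM in Untreated, 72.7 in IL4, 89.4 in the difference and 81.6 CPM for the remainder. *St3gal1*, a sialyltransferase, had 217, 184, 282 and 269.5 CPM. All these values of r are descriptions over the same 12 libraries.

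**Figure D3:**
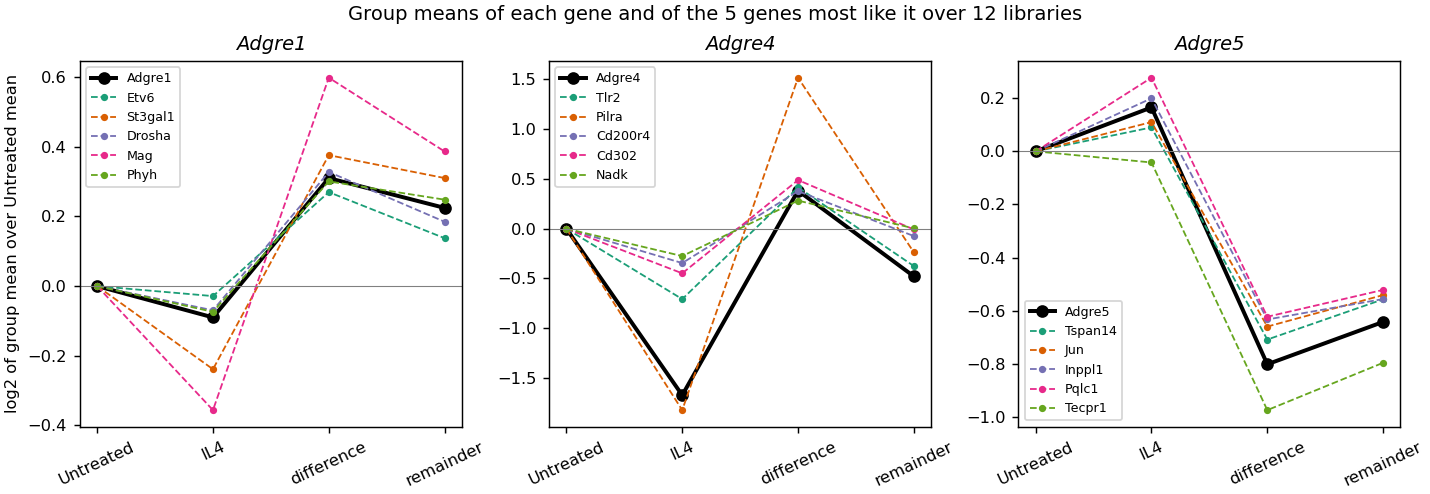
Group means of each receptor (thick black line) and of the 5 genes most like it (dashed lines), as log2 ratios to the Untreated mean (vertical axis) in the 4 groups (horizontal axis). The genes near *Adgre5* share its drop in the difference and the remainder, and *Pilra*, from 28.4 CPM in Untreated to 8.03 in IL4 and 81.4 in the difference, spans more than *Adgre4* itself.

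The rest of the adhesion GPCR family was sparse in these cells. Of 27 further genes of the family, 10 passed the filter of at least 10 counts in at least 3 libraries. The other 17 had at most 6 counts in any library, and 5 of them had 0 in all 12. A count of 0 allows up to 3 counts in a library. Among the 10 tested genes, 1 was higher and 4 were lower in the difference against Untreated, with a median log2 fold change of -0.47 beside -0.01 over all genes tested. In the remainder 2 were higher and 3 lower, with a median of -0.59 beside -0.02. Of all tested genes, 11.8% were higher and 11.4% lower in the difference, and 13.6% and 11.7% in the remainder. Without mouse 3, 1 of the 10 was called lower in the difference.

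*Adgrl2*, a latrophilin, was the most abundant of the 10, at 65.7 CPM in Untreated, 68.7 in IL4, 41.2 (difference) and 32.1 (remainder). It was lower in both, with log2 fold changes of -0.67 (adjusted p = 0.00032 from edgeR) and -1.03 (adjusted p = 5.93e-06 from edgeR), under all 23 alternatives. *Adgrg6*, which in Schwann cells is needed for myelination, had 15.3, 13.9, 13.1 and 8.08 CPM. It was lower in the remainder, against Untreated by -0.92 (adjusted p = 0.000288 from edgeR) and against the difference by -0.69 (adjusted p = 0.0126 from edgeR), the single gene of the 10 called between the parts. The latter call held in 16 of 23 alternatives. Of all tested genes, 5.25% were called between the parts, with 2.38% lower in the remainder.

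*Celsr3*, a planar cell polarity cadherin, had 5.83 CPM in Untreated and 8.32 CPM in the remainder (0.51, adjusted p = 0.0343 from edgeR), a call kept in 11 of 23 alternatives. *Adgrf1* rose from 0.27 CPM to 1.01 CPM in the difference (1.92, adjusted p = 0.00215 from edgeR) and to 0.82 CPM in the remainder (1.62, adjusted p = 0.00733 from edgeR), at no more than 17 counts in any library. With at most 0.39 CPM in Untreated and 0.66 in IL4, it passed the count filter only through the Wnt3a-derived groups. Its calls, counted above, are therefore not independent of that filter. *Adgrl1*, another latrophilin, fell from 1.06 CPM to 0.22 CPM in the difference (-2.15, adjusted p = 0.00374 from edgeR), with 15.6% of its exon bases opposite another gene. At no more than 0.31 CPM in the difference, it passed the filter only through the other groups, so the same limit holds. *Adgrg3* (-1.46, adjusted p = 0.00263 from edgeR) and *Adgrg1* (-1.03, adjusted p = 0.0179 from edgeR) fell in the difference. In the remainder they were at -0.58 and -0.59 (adjusted p = 0.145 and 0.137 from edgeR). *Adgra2* fell from 1.19 CPM in Untreated to 0.44 CPM in the remainder (-1.40, adjusted p = 0.0328 from edgeR). It had no more than 26 counts in any library, and the call was kept in 13 of 22 alternatives. *Adgra3* (-0.37 and -0.50, adjusted p = 0.144 and 0.051) and *Celsr2* (-0.23 and 0.02, adjusted p = 0.575 and 0.968) were not called in either group by edgeR.

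**Figure D4:**
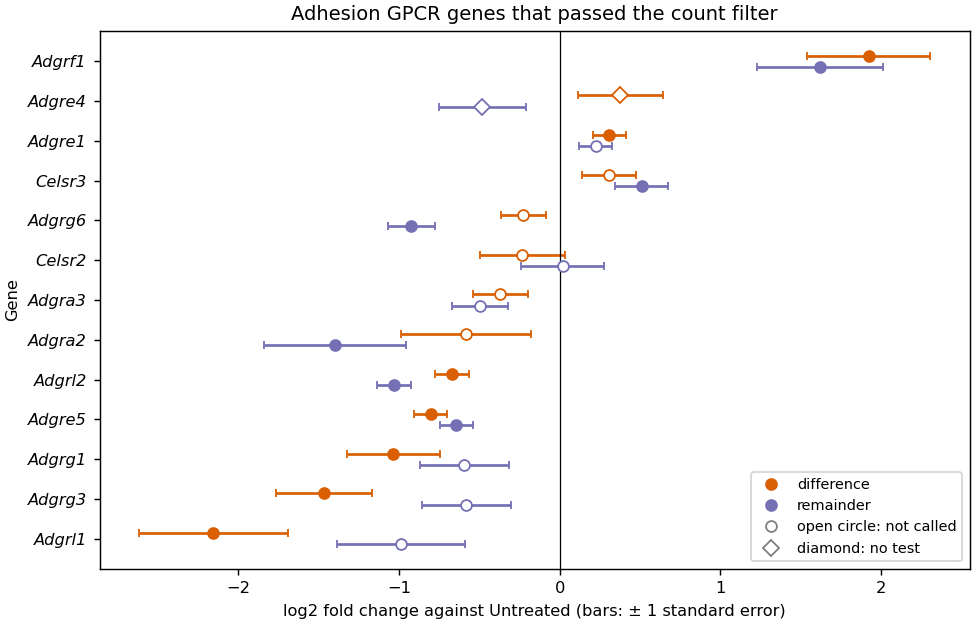
Log2 fold changes against Untreated (horizontal axis) of the 13 adhesion GPCR genes that passed the count filter (vertical axis), in the difference (orange) and the remainder (purple). Bars are ± 1 standard error, and filled points had an adjusted p under 0.05, and the diamonds of *Adgre4* carry no test. *Adgre5* and *Adgrl2* are filled on the lower side in both groups. *Adgrf1*, with log2 fold changes of 1.92 and 1.62, is filled on the higher side in both, but it passed the count filter only through these groups.

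CD97 binds CD55, Thy1 and integrins. Of 7 genes of these partners 5 were tested, and 1 of the 5 was called in each group, beside 23.2% (difference) and 25.3% (remainder) of all tested genes. *Cd55*, the CD97 ligand that protects cells from complement, had 0.60 CPM in Untreated, 0.29 in IL4, 0.53 (difference) and 0.59 (remainder). *Cd55b* had 0 counts in all libraries and *Thy1* at most 2. The integrin genes *Itga5*, *Itgb1* and *Itgav* were not called against Untreated in either group (adjusted p from 0.0671 to 0.964, edgeR). *Itgb3*, the beta subunit of the vitronectin receptor, was the exception. It had 13.7 ± 0.81 CPM in Untreated, 34.4 ± 4.67 in IL4, 4.02 ± 0.82 for the difference and 25.4 ± 6.34 for the remainder (SD, n = 3 each). It was lower in the difference (-1.77, adjusted p = 1.53e-05 from edgeR) and higher in the remainder (0.89, adjusted p = 0.00145 from edgeR), while *Adgre5* was lower in both.

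Of 10 genes of the G12/13 and arrestin routes of GPCR signalling, all 10 were tested. In the difference 2 were lower than Untreated and 8 not called, and in the remainder 4 were lower and 6 not called, beside 11.4% and 11.7% of all genes called lower. Under scaling by total counts 5 and 6 were lower. In the difference neither call held without mouse 3, only 1 held without Untreated mouse 2 or difference mouse 3, and 4 genes were lower without Untreated mouse 1. In the remainder 2 were lower without mouse 3, Untreated mouse 3 or remainder mouse 1. The median log2 fold changes were -0.21 and -0.35 beside -0.01 and -0.02 over all genes. *Gna12*, encoding the G protein subunit, had 359 CPM in Untreated, 360.3 in IL4, 250.2 (difference) and 237 (remainder). Its log2 fold changes were -0.52 (adjusted p = 0.00216 from edgeR) and -0.60 (adjusted p = 0.000661 from edgeR), with 13.3% of its exon bases opposite another gene. *Arrb2*, encoding an arrestin, was lower by -0.24 (adjusted p = 0.0331 from edgeR), a call kept in 16 of 23 alternatives, and -0.57 (adjusted p = 7.58e-05 from edgeR). *Rock2*, encoding a kinase that regulates the actomyosin cytoskeleton, was lower in the remainder (-0.96, adjusted p = 0.0263 from edgeR), a call kept in 14 of 23 alternatives.

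Because EMR4 is known from monocytes with little Ly6C, 13 genes of such monocytes were set beside *Adgre4*, and all 13 were tested. In the difference 4 were higher and 3 lower than Untreated, and in the remainder 1 was higher and 5 lower, where 23.2% and 25.3% of all genes were called in either direction. Of the 4 higher in the difference, *Spn* kept its call in 19 of 23 alternatives, and *Treml4* and *Cebpb* in 17 each. *Cd300e*, an activating receptor of monocytes, fell from 22.1 CPM to 1.81 CPM in the difference (-3.57, adjusted p = 1.01e-07 from edgeR) and 1.22 CPM in the remainder (-4.17, adjusted p = 2.89e-08 from edgeR). *Nr4a1*, the nuclear receptor these monocytes depend on, fell from 11.2 CPM to 1.90 and 2.002 CPM (-2.57 and -2.49, adjusted p = 6.33e-06 and 6.76e-06 from edgeR). *Itgax*, encoding CD11c, rose from 23.1 CPM to 58.5 and 244 CPM (1.34 and 3.40, adjusted p = 8.13e-07 and 1.28e-10 from edgeR), with 8.02% of its 50-base stretches shared with other genes.

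Genes starting within 250 kb of a receptor numbered 46, of which 29 were tested. Against Untreated, 1 was higher and 4 lower in the difference, and 3 were higher and 4 lower in the remainder, beside 23.2% and 25.3% of all genes called in either direction. *C3*, the central complement component, lies near *Adgre1* at chr17:57203970-57228136. Its mean was 568 CPM in Untreated, 1090.0 in IL4, 3835 (difference) and 6196 (remainder) (2.75 and 3.45 against Untreated, adjusted p = 1.77e-08 and 2.72e-09 from edgeR). For *Adgre1* itself these log2 fold changes were 0.31 and 0.22. Near *Adgre4*, *Ebi3*, a cytokine subunit of IL-27 and IL-35, was lower in both groups (-0.85 and -1.01, adjusted p = 3.5e-05 and 5.86e-06 from edgeR), with 23.4% of its exon bases opposite another gene. *Pot1b*, a telomere-binding protein gene also near *Adgre4*, was lower in the remainder (-0.97, adjusted p = 0.00406 from edgeR). *Adgrl1*, described above, is a neighbour of *Adgre5* on chromosome 8.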

How the data were processed

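RNA-seq of 12 BMDM samples (4 groups of 3 mice) was analysed from the deposited raw counts per gene. Per the labels and the methods, the authors trimmed single reads (Trimmomatic 0.36), aligned them to mm10 (STAR 2.6.0) and counted them on genes (HTSeq 0.11.1), without normalization. Of 48526 Ensembl identifiers, 48058 (99.0%) were paired with a symbol from GENCODE M21, the source of positions, overlaps and 50-base stretches.

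The 2 Wnt3a-containing columns of each mouse were separated into difference and remainder. Filtering at 10 or more counts in 3 or more of the 12 libraries left 12421 genes, tested with edgeR 4.0.16 (R 4.3.3), by TMM and the quasi-likelihood test in a single fit without a mouse term, with Benjamini-Hochberg adjustment at 0.05. Intervals are 95% intervals of the fitted log2 fold change, with a spread estimated over all 4 groups together. Ratios of single mice can lie outside them. On simulated counts the fit was checked. DESeq2 1.42.0, other scalings and filters, the mouse as block, the groups compared alone, the deposited columns and each mouse or library left out were alternatives.

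The genes and lists were chosen with earlier results of these data known, so *Adgre4* was tested only in remainder against difference. The p-values of *Adgre1* and *Adgre5* against Untreated or IL4 may also depend on that choice. Named genes are the 3 receptors, the 5 genes with the highest r to each (log2 CPM, prior count 2), all tested adhesion GPCR genes, and from every other list the 3 largest called changes against Untreated with at least 8 CPM. The labels pair the samples, since every group has cells of all 3 mice. Deviations of same-mouse libraries from their group means correlated from -0.42 to 0.45 across genes, and 6 of 18 pairs were over 0.1. A further list of cell type markers is not reported here.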

Additional observations from a re-analysis of the deposited data

How the results depend on the processing

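Over the alternatives, the tested values of the 3 receptors kept direction and call in 221 fits, lost the call in 26 and gained it in 6. With the mouse as replicate block, *Adgre1* in remainder against IL4 was not called (0.31, adjusted p = 0.0522 from edgeR), and no other call of the 3 receptors changed. *Adgre1* in the difference against Untreated was not called with scaling by total counts (0.22) or with only those groups in the fit (0.32). That scaling moved the median log2 change of all genes to -0.10 (difference) and -0.13 (remainder), and the split of called genes from 1462 higher and 1422 lower to 1131 and 2238 (difference) and from 1687 and 1450 to 1293 and 2342 (remainder). In IL4 against Untreated the split moved from 287 and 135 to 247 and 212. *Adgre4* was called in remainder against difference with all genes of at least 1 count (-0.86) and with DESeq2 (-0.87), but stayed uncalled in 18 of 23 alternatives.

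Leaving out a mouse or library gave these ranges of log2 fold change. *Adgre1* ran from 0.22 to 0.42 in difference against Untreated, 0.14 to 0.36 in remainder against Untreated, 0.30 to 0.36 in remainder against IL4 and 0.35 to 0.46 in difference against IL4. *Adgre4* ran from -1.21 to -0.66 in remainder against difference and, as descriptions, from -1.03 to -0.11 in remainder against Untreated and 0.78 to 1.54 in remainder against IL4. With mouse 1, 2 or 3 left out, 2 mice a group remained.

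Without a mouse or library, counts of called genes ranged from 1220 to 3188 in difference against Untreated, 1375 to 3807 in remainder against Untreated, 97 to 1188 in remainder against difference, 1043 to 3052 in remainder against IL4, 1208 to 2805 in difference against IL4 and 77 to 532 in IL4 against Untreated. Of these fits, those without mouse 3 gave the lowest count in each comparison. Remainder against difference gave 652 calls, 1454 with genes of at least 1 count, 422 with only those groups and 0 with the deposited columns (edgeR, with 20 genes at an unadjusted p under 0.05), which share reads. IL4 against Untreated gave 422, 812 with genes of at least 1 count and 708 with the deposited columns. The columns also moved the *Adgre4* value of the IL-4 effect with minus without Wnt3a from 0.81 to 1.54. Apart from these shared reads and the smaller numbers of mice, the cause of these changes was not tested.

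Depth limits *Adgre4* most, with as few as 41 counts in a library. The p-values rest on 3 mice, and the identity of the parts stays unlabelled.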
